A study of Mus musculus with 76 samples.

Results

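A set of genes that ERK signalling switches on, and whose products act back on it or carry it into the nucleus, were followed across mouse tumours driven by different introduced genes. They are the dual-specificity phosphatases Dusp4, Dusp5 and Dusp6, the sprouties Spry1, Spry2 and Spry4, the sprouty-related inhibitors Spred1 and Spred2, and the PEA3-type ETS transcription factors Etv4 and Etv5. They were chosen by symbol as the 10 genes with these names out of 18194 genes on the array, with no cut on their values. Earlier results of these data were known when the choice was made. For a gene with several probe sets the one with the highest average signal was used, and 10 of 10 passed the filter on dim genes, which kept 13868 genes in all. In every one of the 76 arrays each of these probe sets lay above the level of control probe sets against a bacterial gene.

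The tumours came from C57BL/6 mice in a directed complementation model, in which an introduced gene is asked to keep a tumour growing after its first driver is lost. That driver, shared by all groups, was a doxycycline-inducible HER2 carrying the change V659E, and it had been turned off by withdrawing doxycycline. The groups are named for the introduced gene: MAP3K11 and MAP3K7, which head MAP kinase cascades, RSK2, FAK1 and TNK2, which are intracellular kinases, the lipid kinase PIP5K1B, and the receptor forms ErbB3, HER2, FGFR2aIIIb, FGFR2aIIIc, FGFR3, RON+MSP (a receptor with its ligand) and RONd160. There were 4 arrays of FAK1 tumours and 6 of every other group. The 6 MAP3K11 tumours are labelled as coming with cachexia, a wasting syndrome of the tumour's host, and the remaining 70 as without it. Promoter, clone, age and sex are not given in the sources used here, and the labels T1, T2 and T3 that the arrays also carry are not defined there.

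ERK is the last kinase of the RAS, RAF and MEK cascade that growth factor receptors set off. Active ERK induces its own brakes: Dusp6 dephosphorylates ERK in the cytoplasm, Dusp4 and Dusp5 do so in the nucleus, sprouties and Spred proteins dampen signalling at or above RAF, and Etv4 and Etv5 are ETS factors known as readouts of FGF receptor signalling. Because their transcripts follow ERK activity within hours in many cells, these genes are widely read as a record of pathway output.

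Arrays of a group were not all independent of each other. The 76 arrays were matched into 38 pairs within groups by the medians of the genes on each autosome, a step that pairs every array. Each pair had 2 different T labels. With chromosome medians removed, the median r of expression was 0.771 for the 2 arrays of a pair and 0.271 for arrays of 1 group that were not paired. The pairs were picked for likeness in these same arrays, so this gap does not test the pairing. The labels name no such pairs, and whether 2 arrays of a pair share a tumour, a mouse or a line was not tested. Where the call changes, adjusted p-values are therefore given from limma with the arrays as separate samples. They are also given from limma with the pairs as a random block, at a correlation of 0.628. Fits that left out arrays, singly, in pairs or as a group, were run without the block only. Values are log2 expression, SE is the standard error of a fitted difference, and called means an adjusted p below 0.05, with the adjustment made over all genes tested.

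Promoter windows were read for 7 of the 10 genes, with 2 starts for Etv5, from the RefSeq promoter table on GRCm38.p6. The 250 bases before the start are shown for Dusp5, Dusp6 and Spry2, since Spry2 was higher and Dusp6 lower in MAP3K11 tumours and Dusp5 lower in ErbB3 tumours. Capitals mark the ETS core GGAA on either strand (TTCC on the printed strand), the CRE core TGACG on either strand (CGTCA on the printed strand) and the CArG box, the site of SRF.

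Dusp5 (chr19:53528895-53529144, plus strand): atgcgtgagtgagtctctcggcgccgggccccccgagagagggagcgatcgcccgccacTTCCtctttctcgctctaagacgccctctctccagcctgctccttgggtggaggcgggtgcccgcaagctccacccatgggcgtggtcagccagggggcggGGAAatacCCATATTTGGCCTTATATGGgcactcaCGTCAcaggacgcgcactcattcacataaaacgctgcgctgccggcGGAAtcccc

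Dusp6 (chr10:99262981-99263230, plus strand): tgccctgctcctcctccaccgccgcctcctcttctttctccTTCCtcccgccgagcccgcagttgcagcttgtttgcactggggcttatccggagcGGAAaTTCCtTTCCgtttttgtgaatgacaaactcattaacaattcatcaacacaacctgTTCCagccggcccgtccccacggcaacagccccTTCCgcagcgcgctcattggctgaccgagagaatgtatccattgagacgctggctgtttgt

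Spry2 (chr14:105896820-105897069, minus strand, read 5′ to 3′): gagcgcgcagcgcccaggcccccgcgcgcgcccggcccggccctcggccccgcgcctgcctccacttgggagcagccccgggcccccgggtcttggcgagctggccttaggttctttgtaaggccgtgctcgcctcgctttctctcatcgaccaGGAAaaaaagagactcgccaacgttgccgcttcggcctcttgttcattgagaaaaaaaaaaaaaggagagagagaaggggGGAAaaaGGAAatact

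Dusp5 carried 2 CArG boxes side by side, CCATATTTGG and CCTTATATGG, at 82 and 72 bases before its start, followed by a CRE core. A CArG box is present in 1.47% of the 32851 promoter windows of this length, and among the 8 windows of these genes the Dusp5 window held it. The Dusp6 window held 6 ETS cores and the Spry2 window 3, but the core is in 93.4% of all windows and in 7 of these 8. The longer ETS site CCGGAA, which contains the core, is in 12% of all windows, the AP-1 site TGANTCA in 6.75% and the full CRE TGACGTCA, which contains the CRE core, in 1.55%, each searched on both strands, and 0 of these 8 windows held any of them. CRE cores were found in 2 of the 8, those of Dusp5 and Spred2, against 17.8% of all windows.

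By limma's F test across the 13 groups 10 of the 10 genes were called, as were 85.9% of all genes tested. With the pairs as a block 9 of 10 were called, against a background of 54%, and Spry4 was not (limma, adjusted p = 0.121). Their median F was 3.91, and that of all genes tested was 4.07, so the call itself does not set these genes apart. The distance between the highest and the lowest group mean was 3.12 for Dusp4, 1.59 for Spry2, 1.48 for Dusp5, 1.30 for Dusp6 and 1.23 for Etv5. It was 0.98 for Spry1, 0.82 for Etv4, 0.75 for Spry4, 0.60 for Spred2 and 0.48 for Spred1. ErbB3 had the lowest mean for 6 of them, Dusp4, Dusp5, Spry2, Spry4, Spred2 and Etv4, and MAP3K11 had the lowest for Dusp6 and Etv5.

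**Figure D1:**
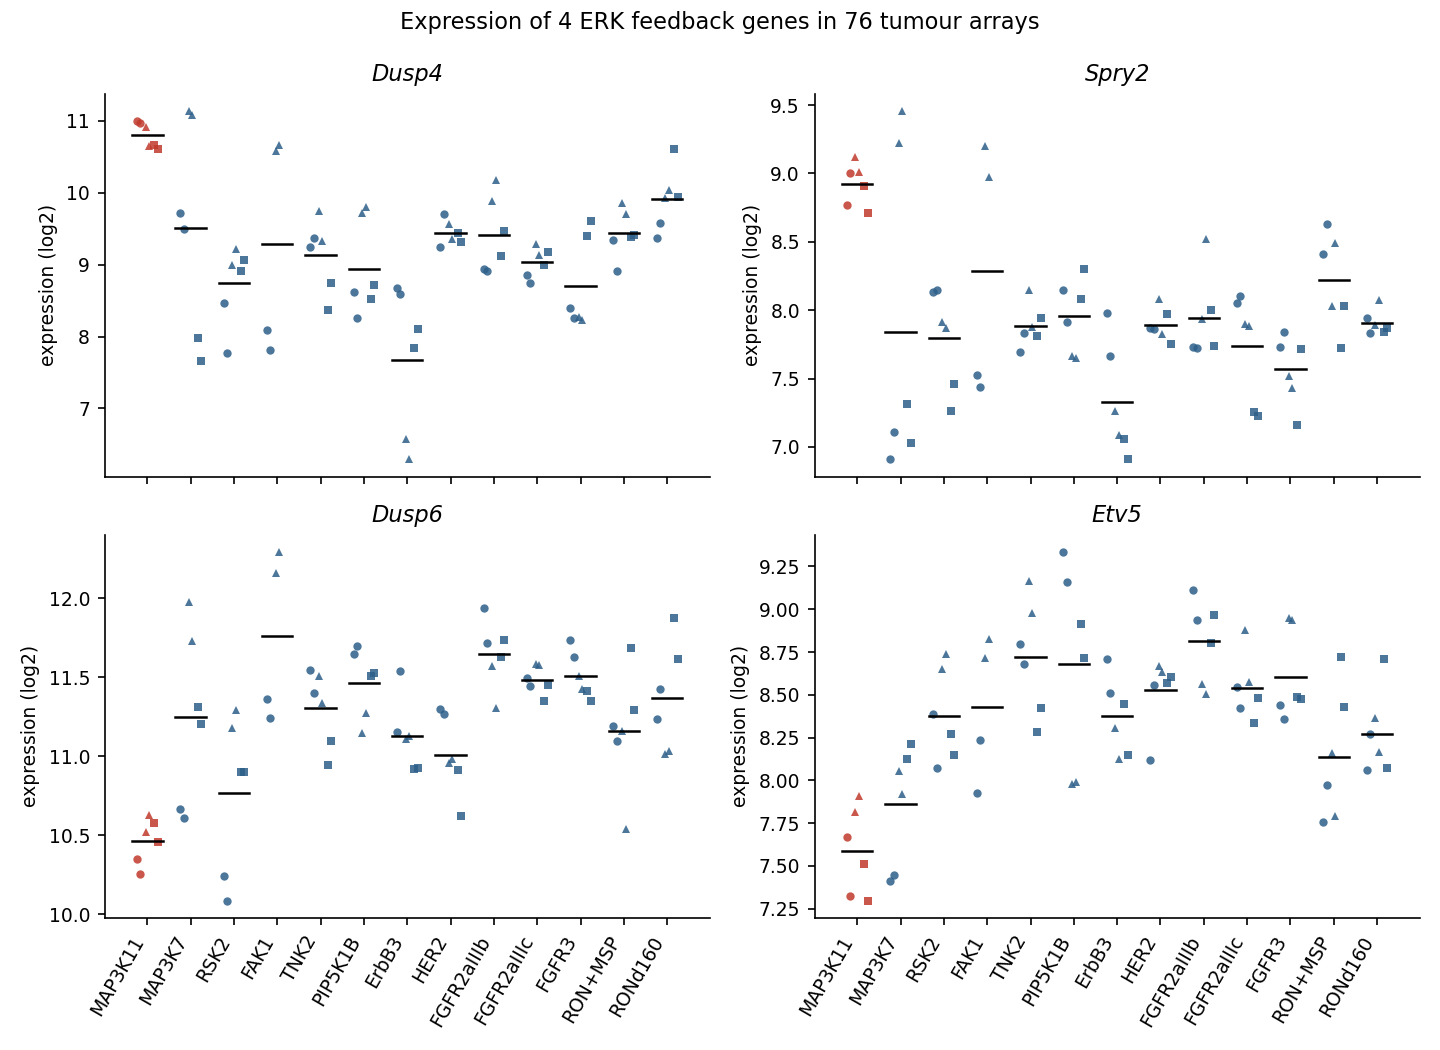
Log2 expression of Dusp4, Spry2, Dusp6 and Etv5 (vertical axis) in each array of the 13 groups (horizontal axis), with MAP3K11 in red. Circles, triangles and squares are the arrays of matched pairs 1, 2 and 3, and black lines are group means. Dusp4 and Spry2 are high and Dusp6 and Etv5 low in all 6 MAP3K11 arrays, while MAP3K7 and FAK1 arrays split by pair.

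In MAP3K11 tumours 2 of the 10 genes were higher and 2 lower than in the mean of the other 12 groups. Counts of calls are high in this comparison: 54.2% of all genes tested were called, 25% higher and 29.3% lower, or 39.3% with the pairs as a block, so 4 of 10 is no more than the background. Dusp4 and Spry2, a nuclear phosphatase and a sprouty, were higher, and Dusp6 and Etv5, a cytoplasmic phosphatase and an ETS factor, were lower. All 4 calls held with the pairs as a block. The phosphatases were thus called in both directions.

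Dusp4 (chr8:34807610-34819894) stood at 10.61, 10.79 and 11.00 (lowest, median and highest) in the 6 MAP3K11 arrays, against 6.29, 9.23 and 11.14 in the other 70. Of those 70, 3 reached the lowest MAP3K11 array, 2 of them MAP3K7 arrays and 1 a FAK1 array. The fitted difference was 1.69 (SE 0.30, adjusted p = 3.19e-06, limma), which is 3.23-fold.

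Spry2 (chr14:105891947-105896819), which in mammals is induced by many growth factors, was at 8.71, 8.95 and 9.12 in MAP3K11 arrays, against 6.91, 7.87 and 9.46 in the others. The 4 arrays that overlapped belonged to the same MAP3K7 and FAK1 pairs that were high in Dusp4. It was 2.08-fold higher in MAP3K11 tumours, by 1.06 (SE 0.20, adjusted p = 6.29e-06, limma), and its second, dimmer probe set was higher there by 0.60.

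Dusp6 (chr10:99263231-99267489) was at 10.26, 10.49 and 10.63 in MAP3K11 arrays, against 10.09, 11.33 and 12.29 in the others. It was lower in MAP3K11 tumours, with 5 of the other 70 arrays at or below the highest MAP3K11 array: 2 RSK2 arrays and 1 each of MAP3K7, HER2 and RON+MSP. The difference was -0.86 (SE 0.14, adjusted p = 2.2e-07, limma), a 1.81-fold lower level.

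Etv5 (chr16:22381313-22439570) was at 7.30, 7.59 and 7.91 in MAP3K11 arrays, against 7.41, 8.46 and 9.33 in the others. Only 4 of the other 70 arrays fell within or below this range, 2 of MAP3K7 and 2 of RON+MSP. The difference was -0.85 (SE 0.13, adjusted p = 1.92e-07, limma), or 1.81-fold lower, and the other 2 probe sets of the gene differed by -0.95 and -1.10. Its relative Etv4 did not pass the test (0.08, SE 0.11, adjusted p = 0.57, limma).

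Of the genes that were not called in MAP3K11 tumours, Spry1 came nearest to the threshold, with a difference of -0.41 (SE 0.19, adjusted p = 0.0615, limma). Dusp5 differed by 0.20 (SE 0.21, adjusted p = 0.424, limma), and Spry4, Spred1 and Spred2 by 0.09, -0.11 and 0.01. The probe sets of Spry4 disagreed: the one used was higher in MAP3K11 arrays by 0.10, and its other 3 were lower there by -0.31, -0.39 and -0.44. No direction is therefore given for Spry4 in these tumours.

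The comparisons of MAP3K11 with single groups share the MAP3K11 arrays. Against MAP3K7, the other kinase at the head of a MAP kinase cascade, 3 of 10 genes were called (37.4% of all genes, and 3 of 10 and 21.6% with the pairs as a block): Dusp4 by 1.29 (SE 0.41), Spry2 by 1.08 (SE 0.27) and Dusp6 by -0.79 (SE 0.18). The MAP3K7 group was itself split, as described below. Fitted with only the arrays of these 2 groups, Dusp4 and Spry2 were not called (adjusted p = 0.11 and 0.113, limma). Etv5 was low in both groups, at 7.59 ± 0.25 in MAP3K11 and 7.86 ± 0.35 in MAP3K7 tumours (SD, n = 6 each), and did not pass the test between them (-0.27, SE 0.18, adjusted p = 0.237, limma). Dusp4 was no longer called against MAP3K7 without MAP3K7 T2 replicate 2 or T3 replicate 2, the 2 arrays lowest in Dusp4 there (highest adjusted p = 0.0809, limma). Against HER2 the same 4 genes were called as against the other 12 groups (49.2% of all genes, and 33.3% with the pairs as a block): Dusp4 by 1.36, Spry2 by 1.03, Dusp6 by -0.54 and Etv5 by -0.94.

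Epithelial markers stood higher in the MAP3K11 tumours too. The mean over the 11 epithelial markers tested, of 13 measured, was 7.07 to 7.62 in MAP3K11 arrays. Their median of 7.23 was above the medians of the other groups, 6.51 to 7.05. Arrays of other groups overlapped this range, with highs of 7.41 in RONd160, 7.33 in FGFR2aIIIb and 7.23 in HER2. The endothelial list was at 7.76 to 8.18 in MAP3K11 arrays, with a median of 7.99, against group medians of 7.14 to 8.17. The fibroblast list, 11 of 11 tested, was at 11.35 to 11.72 in MAP3K11 arrays, against group medians of 10.42 to 11.60, and the macrophage list had its lowest median there, 9.78. The skeletal muscle list was at 4.47 to 4.81 in MAP3K11 arrays, with a median of 4.56, against group medians of 5.22 to 9.49, and one of its markers, Myh4, was at or below the control level in 29 of the 76 arrays. The T cell list, with 4 of 9 markers tested, had its highest median in MAP3K11, 5.36, against 5.10 to 5.29. No marker of the fibroblast, endothelial and macrophage lists was at or below the control level in any array, while Esrp1 of the epithelial list was in 22 arrays. The part of these shifts in the feedback genes was not tested, and in bulk tumour RNA a change in the number of cells of a type and a change in RNA per cell cannot be told apart.

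**Figure D2:**
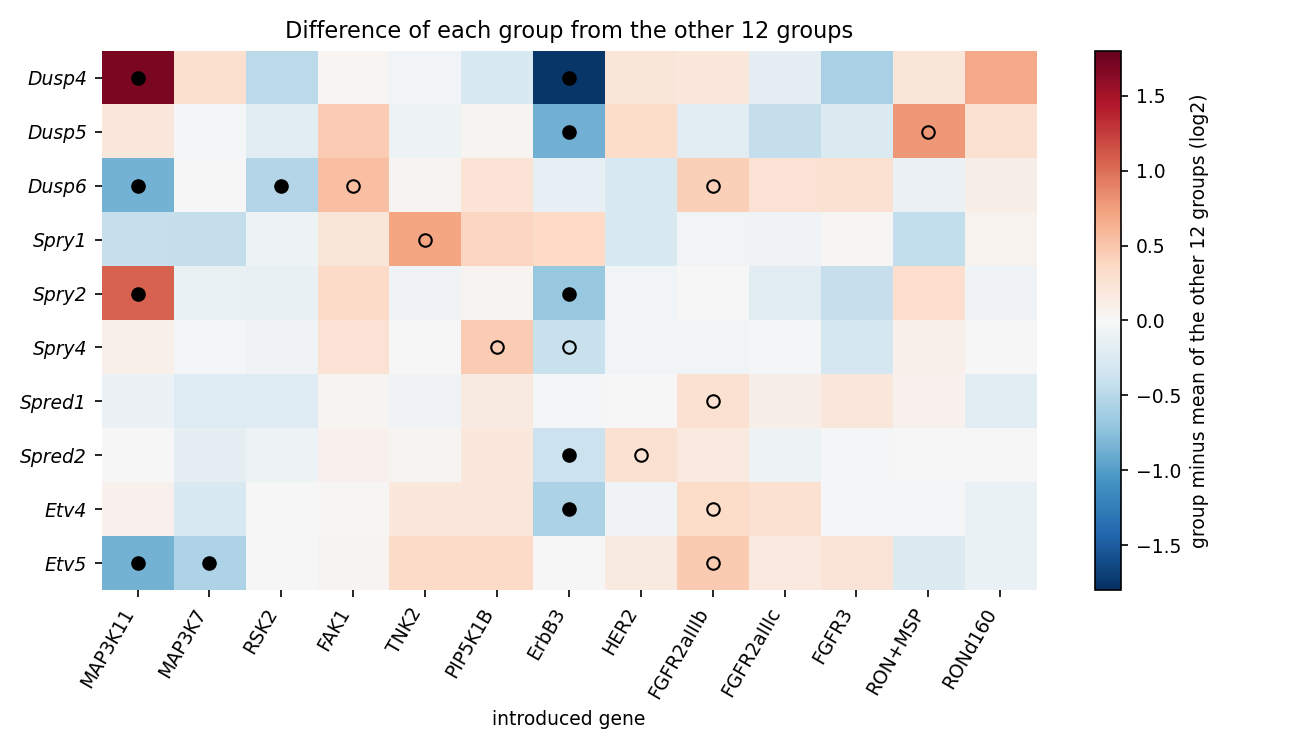
Difference in log2 expression of each group from the mean of the other 12 (colour, red higher and blue lower) for the 10 genes (rows) and 13 groups (columns). Filled dots mark calls that also held with pairs of arrays as a block and open dots calls without the block only. Of 21 called cells, 11 are filled, and 2 of these are higher, both in MAP3K11.

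Over all 13 groups, each set against the other 12, 21 of 130 differences were called, 11 higher and 10 lower, a share close to the 17.9% of all genes and groups. With the pairs as a block 11 were left (background 6.69%), 2 higher and 9 lower. The 2 higher ones were Dusp4 and Spry2 in MAP3K11 tumours, and 5 of the 9 lower ones were in ErbB3 tumours. The comparisons share arrays, so their counts are not independent.

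ErbB3 tumours had the lowest group mean for 6 of the 10 genes. ErbB3 is a receptor whose own kinase is nearly inactive and which signals through partners. Of the 10 genes 6 were lower there than in the other 12 groups and 0 were higher, while 28.6% of all genes were called and 13.6% called lower. With the pairs as a block 5 of 10 were called, all lower, against 11.9% of all genes called and 6.12% called lower.

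Dusp4 was at 8.68 and 8.59 in the ErbB3 arrays T1 replicate 1 and T3 replicate 1, at 7.84 and 8.10 in T2 replicate 1 and T3 replicate 3, and at 6.57 and 6.29 in T1 replicate 2 and T3 replicate 2. The other 70 arrays lay between 7.66 and 11.14 with a median of 9.35, so the last 2 were below every other array of the series. The difference was -1.75 (SE 0.31, adjusted p = 1.99e-05, limma), or 3.35-fold lower.

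Dusp5 (chr19:53529145-53541809), at 7.45, 8.23 and 9.77, against 8.13, 9.31 and 10.48 in the other arrays, differed by -0.86 (SE 0.21, adjusted p = 0.00138, limma). Its 6 ErbB3 values split in the same way, with T1 replicate 1 and T3 replicate 1 at 9.77 and 9.48 and the rest at 8.29 or less. Etv4 (chr11:101769747-101785310) differed by -0.57 (SE 0.11, adjusted p = 7.69e-05, limma), Spry2 by -0.69 (SE 0.20, adjusted p = 0.00695, limma) and Spred2 (chr11:19924442-20024026) by -0.39 (SE 0.08, adjusted p = 0.000397, limma). Spry4 differed by -0.41 (SE 0.14) and was called without the block only (adjusted p = 0.0917 with the pairs as a block, limma), and was lost without T1 replicate 2 or T3 replicate 2 (highest adjusted p = 0.0997, limma). Dusp6, Spry1, Spred1 and Etv5 were not called, at -0.14, 0.36, -0.04 and 0.01. With the most variable probe set of each, Spred2 and Spry4 were not called (-0.18 and -0.13, adjusted p = 0.359 and 0.691, limma).

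These ErbB3 calls rest in part on the pair lowest in Dusp4. Without this pair, which was picked after its values were seen, 3 of 10 genes were called, Dusp4 (-1.10), Dusp5 (-0.72) and Spred2 (-0.32), against 11.8% of all genes. In the same 2 arrays, T1 replicate 2 and T3 replicate 2, the fibroblast list stood at 11.63 and 11.88 and the macrophage list at 11.01 and 11.17, both the highest of the group, and the epithelial list at 5.71 and 6.60. Within the whole series, T3 replicate 2 was the highest array in the fibroblast, adipocyte (9.79) and T cell (5.95) lists. T1 replicate 2 was the lowest in the epithelial list. The part of this mixture in the low values was not tested.

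Among receptor groups, FGF receptors were set against ERBB receptors, since sprouties and PEA3 factors are known FGF response genes. FGFR2aIIIb, FGFR2aIIIc and FGFR3 together were higher than HER2 and ErbB3 in 2 of 10 genes (8.7% of all genes). Etv4 averaged 9.14 ± 0.09, 9.07 ± 0.13 and 8.81 ± 0.11 in the FGFR2aIIIb, FGFR2aIIIc and FGFR3 tumours, against 8.78 ± 0.09 in HER2 and 8.32 ± 0.39 in ErbB3 tumours (SD, n = 6 each). The difference was 0.47 (SE 0.10, adjusted p = 0.000938, limma) and was called with the pairs as a block (adjusted p = 0.0268), where 1.05% of all genes were.

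Dusp6 averaged 11.65 ± 0.21, 11.51 ± 0.15 and 11.48 ± 0.09 in the FGFR2aIIIb, FGFR3 and FGFR2aIIIc tumours, against 11.13 ± 0.23 in ErbB3 and 11.01 ± 0.25 in HER2 tumours (SD, n = 6 each). The difference of 0.48 (SE 0.12, adjusted p = 0.00627, limma) was not called with the pairs as a block (adjusted p = 0.0702). The sprouties did not pass the test here: Spry1, Spry2 and Spry4 differed by -0.06 (SE 0.17), 0.15 (SE 0.17) and 0.10 (SE 0.12). Etv5 and Spred1 were higher by 0.19 each without passing it (adjusted p = 0.343 and 0.112, limma).

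FGFR2aIIIb tumours alone had the highest means of Etv4, Etv5 and Spred1. Against the other 12 groups 4 of 10 genes were called, all higher (11.9% of all genes were called, 7.17% higher): Dusp6 by 0.43, Spred1 by 0.27, Etv4 by 0.33 and Etv5 by 0.48. With the pairs as a block 0 of these 4 were called (adjusted p = 0.144, 0.183, 0.197 and 0.104, limma), and 1.91% of all genes were; 4 of the 10 had an unadjusted p under 0.05. Leaving out any 1 of the 6 arrays ended the calls of Etv4 and Spred1 (highest adjusted p = 0.0962 and 0.126, limma), and 4 of the 6 ended that of Dusp6 (highest adjusted p = 0.103). That of Etv5 ended without T1 replicate 1 (adjusted p = 0.059, limma). In FGFR2aIIIc and FGFR3 tumours limma called 0 of the 10 genes, against 1.62% and 2.6% of all genes, and 2 and 3 of them had an unadjusted p under 0.05.

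Receptor groups together were set against the 6 groups of intracellular kinases. Without the block 4 of 10 genes were called (33.3% of all genes), Spry2 by -0.33, Spry4 by -0.21, Etv5 by 0.19 and Spred1 by 0.12, and with it limma called 0 (13.9%; 4 of the 10 had an unadjusted p under 0.05). With the lipid kinase PIP5K1B left out of the contrast 5 of 10 were called (42.4%), Dusp4 by -0.43, Spry2 by -0.35, Dusp6 by 0.22, Spred1 by 0.16 and Etv5 by 0.28. The block then kept Spry2, Spred1 and Etv5 (22.8%; limma, adjusted p = 0.0422, 0.0365 and 0.0218). The contrast also depended on MAP3K11: without that group the Spry2 difference was -0.17 and that of Etv5 0.05, and Spry4 alone was called (adjusted p = 0.0498, limma, 21% of all genes). For Spry4 the sign also depended on the probe set, as given with the alternatives.

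The remaining calls were 1 gene to a group. Etv5 was lower in MAP3K7 tumours by -0.56 (SE 0.13, adjusted p = 0.00159, limma; 24.4% of all genes called) and Dusp6 in RSK2 tumours by -0.52 (SE 0.14, adjusted p = 0.00512, limma; 18.2%). Both held with the pairs as a block (adjusted p = 0.0215 and 0.0479, limma; 7.9% and 2.59% of all genes), but Dusp6 in RSK2 was lost without T1 replicate 1 or T2 replicate 2, its 2 lowest arrays at 10.25 and 10.09 (highest adjusted p = 0.0674). RSK2 is a kinase directly below ERK.

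Called without the block only were Spry1 in TNK2 by 0.71 (5.16% of all genes), Dusp5 in RON+MSP by 0.78 (8.57%), Spry4 in PIP5K1B by 0.45 (18.7%), Spred2 in HER2 by 0.27 (26.6%) and Dusp6 in FAK1 by 0.54 (8.42%). With the block their adjusted p-values were 0.219, 0.0817, 0.0815, 0.0563 and 0.166. Spred2 in HER2 also depended on the probe set: with the mean of its probe sets it differed by 0.07 (adjusted p = 0.427, limma). Single arrays ended 3 of these calls by limma: Spry1 in TNK2 (without T1 replicate 1, T1 replicate 2 or T2 replicate 1, highest adjusted p = 0.101), Spry4 in PIP5K1B (without T2 replicate 3 or T3 replicate 2, the 2 arrays at 7.28 and 7.52, highest adjusted p = 0.152) and Dusp6 in FAK1 (without T1 replicate 2 or T3 replicate 1, highest adjusted p = 0.363). In RONd160 limma called 0 of the 10 genes, against 23.3% of all genes, and 2 had an unadjusted p under 0.05.

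The order of the group means has few clear steps. For Dusp4 it ran from MAP3K11 (10.80 ± 0.18) over RONd160 (9.91 ± 0.43), MAP3K7, HER2, RON+MSP, FGFR2aIIIb, FAK1, TNK2, FGFR2aIIIc, PIP5K1B, RSK2 and FGFR3 (8.70 ± 0.63) to ErbB3 (7.68 ± 1.02; SD, n = 6 each for the 4 with values). The pooled SD within groups was 0.73, and 2 of the 12 steps between neighbours were larger, the first and the last. For Spry2 1 step was larger than the pooled SD of 0.47, that from MAP3K11 (8.92) down to FAK1 (8.28). For Dusp6 the order ran from FAK1 (11.76) and FGFR2aIIIb (11.65) to RSK2 (10.77) and MAP3K11 (10.46), and for Etv5 from FGFR2aIIIb (8.81) and TNK2 (8.72) to MAP3K7 (7.86) and MAP3K11 (7.59), with 0 steps larger than the pooled SD of 0.32 in either. For Etv4 the last step, from MAP3K7 (8.59) to ErbB3 (8.32), was about as large as the pooled SD of 0.26 and passed it. Dusp5, Spry1, Spry4, Spred1 and Spred2 had 0 such steps.

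The SD of pair means within groups was 0.80 for Dusp4, 0.54 for Dusp5, 0.51 for Spry2 and 0.49 for Spry1, and the SD of the group means was 0.72, 0.39, 0.38 and 0.32. Dusp6 and Etv5 were the 2 of the 10 genes whose group means spread more (0.36 and 0.35) than their pairs (0.34 and 0.33). Over all genes tested, the median SD was 0.158 between group means and 0.168 between pair means. The share of all genes with either order was not counted. The 2 arrays of a pair lay close together: the SD within pairs was 0.08 to 0.19. The ratio of the SD between pairs to that within them was 2.02 (Etv4) to 4.12 (Dusp4), and its median over all genes tested was 1.47.

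**Figure D3:**
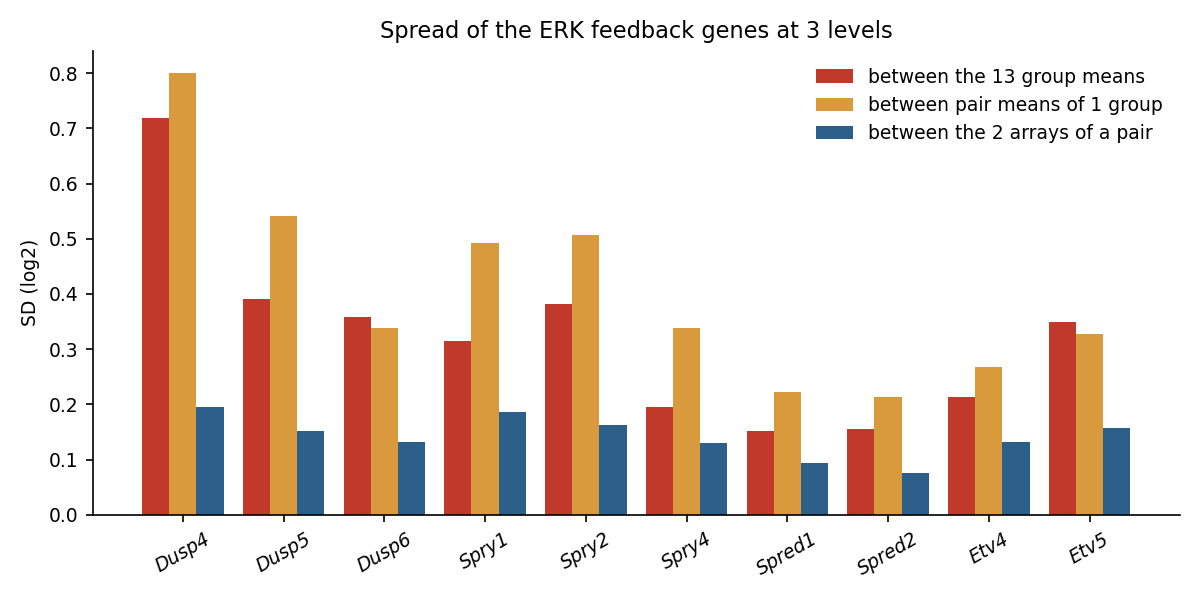
SD of log2 expression (vertical axis, from 0) of the 10 genes (horizontal axis) between the 13 group means (red), between pair means of 1 group (ochre) and between the 2 arrays of a pair (blue). Between-pair bars are the tallest for all but Dusp6 and Etv5, and within-pair bars stay at 0.19 or less.

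FAK1 tumours split in all 10 genes. In T1 replicate 2 and T3 replicate 1 all 10 genes lay above both other arrays of the group; 36.9% of all genes tested did so, and the median difference was 1.04 for the 10 genes and -0.0047 for all genes. Dusp4 was at 10.58 and 10.67 in these 2 arrays, against 8.09 and 7.81 in T1 replicate 1 and T2 replicate 1, a 6.39-fold difference. Spry2 was at 9.20 and 8.97, against 7.53 and 7.44. Spry1 (chr3:37639947-37644599) was at 9.39 and 9.10, against 7.75 and 7.89. The smallest gap of the 10 was that of Etv5, at 8.72 and 8.83, against 7.93 and 8.24. In each of these 4 genes the pairs did not overlap.

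Of the 20 other ERK-induced genes 13 lay above and 3 below in this FAK1 pair, and of the 15 relatives 8 above and 4 below, where 36.9% of all genes lay above and 36.9% below. Hbegf, an EGF receptor ligand, was at 11.69 and 11.58 in T1 replicate 2 and T3 replicate 1, against 9.67 and 9.38, and Errfi1, an inhibitor of EGF receptors, at 11.81 and 11.67, against 10.17 and 9.85. Egr2, an early response transcription factor, was lower there, at 5.90 and 6.03, against 7.65 and 7.03. The fibroblast list stood at 9.58 and 9.66 in the 2 arrays with high feedback genes, against 11.43 and 11.38, the macrophage list at 9.23 and 9.50, against 10.99 and 11.06, and the endothelial list at 6.24 and 6.51, against 7.80 and 7.77. The epithelial list was nearly level, at 6.54 and 6.63, against 6.49 and 6.49. The part of this difference in the feedback genes was not tested.

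FAK1 as a group had wide errors, such as 9.29 ± 1.55 for Dusp4 (SD, n = 4). Without the pair with high values, which was picked after they were seen, Dusp6 was not called in FAK1: the difference was 0.08 (SE 0.22, adjusted p = 0.89, limma). Etv4 was then called lower in the 2 arrays left (-0.54, SE 0.16, adjusted p = 0.0301, limma), 1 of 10 genes against 4.52% of all genes. These 2 arrays are 1 matched pair, which the fit took as separate samples, so the call does not measure spread between pairs.

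MAP3K7 tumours held a similar pair. In T1 replicate 2 and T3 replicate 1, 8 of the 10 genes, all but Spry1 and Etv5, lay above the other 4 arrays, against 19.5% of all genes, with a median difference of 0.84. Dusp4 was at 11.14 and 11.08 in this pair, against 9.72 and 9.50 in T1 replicate 1 and T2 replicate 1 and 7.97 and 7.66 in T2 replicate 2 and T3 replicate 2. Spry2 was at 9.22 and 9.46, against 6.91 to 7.32 in the other 4, a 4.76-fold difference. The highest arrays of the whole series in Dusp4, Dusp5 and Spry2 were arrays of this pair. Its values passed those of the MAP3K11 tumours for these 3 genes, but its Dusp6, at 11.98 and 11.73, was above all MAP3K11 arrays.

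**Figure D4:**
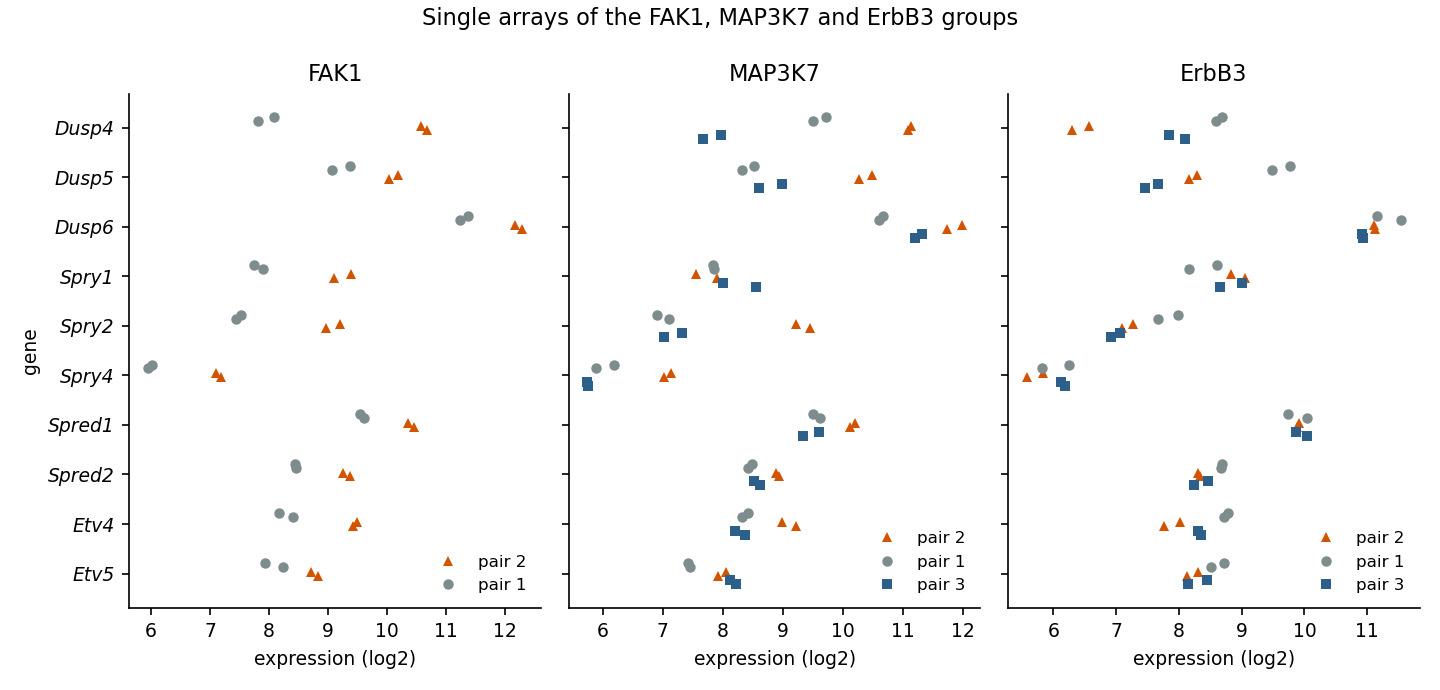
Log2 expression (horizontal axis) of the 10 genes (rows) in each array of FAK1, MAP3K7 and ErbB3 (panels), with symbols and colours for the matched pairs. Triangles (pair 2) lie to the right for 10 of 10 genes in FAK1 and 8 in MAP3K7, and for Dusp4 to the far left in ErbB3.

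In this MAP3K7 pair Hbegf was at 11.45 and 11.40, against 8.20 to 9.31 in the other 4 arrays, and Ier3, an early response gene, at 12.07 and 12.15, against 9.15 to 10.15. The epithelial list was lower in the pair, at 6.35 and 6.42, against 6.45 to 7.08, and the endothelial list at 6.97 and 7.24, against 7.25 to 8.54. The macrophage list was at 10.03 and 10.04, against 10.17 to 11.26, and the skeletal muscle list at 4.599 and 4.675, against 5.06 to 7.09. The fibroblast list, at 11.43 and 11.64, lay within the range of the others, 10.91 to 11.85, and the part of these lists in the feedback genes was not tested. Without the pair, left out after its values were seen, 7 of 10 genes were lower in MAP3K7 than in the other 12 groups (6.66% of all genes were called lower), among them Spry2 by -0.85 (SE 0.17, adjusted p = 0.000523, limma) and Etv4 by -0.51 (SE 0.12, adjusted p = 0.00234, limma). With all 6 arrays, Etv5 alone was called. Against the 4 arrays left, MAP3K11 differed in 7 of 10 genes (40% of all genes), Dusp4 by 2.06 and Spry2 by 1.82, and Etv5 did not pass the test (-0.21, adjusted p = 0.43, limma).

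ErbB3 had its own high pair: T1 replicate 1 and T3 replicate 1 lay above the other 4 arrays in 7 of 10 genes (17.9% of all genes). TNK2 T1 replicate 3 and T2 replicate 3 lay below the rest of their group in 7 (10.4%), RONd160 T1 replicate 3 and T3 replicate 2 above in 6 (17.5%), and PIP5K1B T2 replicate 1 and T3 replicate 1 below in 6 (29.6%). In MAP3K11, HER2 and FGFR3 no pair lay above the rest of its group in more than 3 genes or below it in more than 2. Of all genes, 8.97% to 23.9% lay above and 7.54% to 24% below in the pairs of these groups. The pairs of a group were sorted after their values were seen, so these counts describe the arrays and test nothing.

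Across the 38 pair means, each less its group mean, 44 of 45 gene pairs of the 10 genes had r above 0. Their median was 0.52 and the highest value 0.78, for Spred2 with Etv4. Such counts were not made for pairs of other genes, so they do not set these 10 apart. The points share arrays and groups of 2 or 3 pairs. Over the 13 group means the median was 0.33 and 31 of 45 were above 0, from -0.57 (Spry2 with Etv5) to 0.86 (Dusp4 with Spry2). Dusp4 with Etv5 was at -0.55 between groups and 0.04 between pairs. Against the endothelial list the same pair deviations had r from -0.72 (Etv4) to -0.10 (Spry1), and against the fibroblast list from -0.61 (Spred2) to -0.20 (Spry1). The macrophage list gave r from -0.69 (Dusp4) to 0.27 (Etv5) and the epithelial list from -0.36 (Spred1) to 0.29 (Dusp5). For the skeletal muscle list r ran from -0.23 (Spry4) to 0.22 (Dusp4). The adipocyte list gave r from -0.42 (Dusp5) to 0.01 (Etv5) and the T cell list from -0.46 (Etv5) to 0.07 (Spry4). For the group means the epithelial list gave r from -0.39 (Dusp6) to 0.87 (Dusp4). The macrophage list then ran from -0.77 (Dusp4) to 0.61 (Spry1), and the skeletal muscle list from -0.67 (Dusp4) to 0.43 (Etv5). For the endothelial list r was -0.71 (Dusp6) to 0.10 (Spry2), and for the fibroblast list -0.72 (Spred2) to 0.09 (Spry2). The adipocyte and T cell lists gave -0.65 (Dusp5) to 0.37 (Spry1) and -0.61 (Etv5) to 0.23 (Spry2). These correlations are descriptions.

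Relatives of the feedback genes were called in the MAP3K11 tumours about as often as all genes, of which 54.2% were. Of 15 tested, of 17 named, 5 were higher and 3 lower than in the other 12 groups (5 and 2 with the pairs as a block, where 39.3% of all genes were called), and the list's median difference was 0.16, against -0.01 for all genes. Dusp10, a phosphatase that acts on p38 and JNK, averaged 9.88 in MAP3K11 and 6.89 in the other 12 groups, a difference of 2.99 (SE 0.16, adjusted p = 1.91e-24, limma). Dusp8, with the same substrates, differed by 1.70 (SE 0.10, adjusted p = 7.71e-24, limma). Dusp9, an ERK phosphatase, was lower by -1.25 (SE 0.32, adjusted p = 0.000823, limma), and Errfi1 was not called (0.16, adjusted p = 0.433, limma). Errfi1 was called between FGF and ERBB receptors, where it was higher by 0.76 (SE 0.15, adjusted p = 0.000553, limma).

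Of 20 other ERK-induced genes 9 were higher and 2 lower in MAP3K11 tumours, against the same 54.2% of all genes (7 and 2 with the block, against 39.3%), with a median difference of 0.21, against -0.01 for all genes. Plaur, the urokinase receptor, differed by 1.08 (SE 0.17), Ier3 by 1.11 (SE 0.24) and Egr2 by 0.99 (SE 0.22), while Hbegf was not called (0.46, SE 0.27, adjusted p = 0.148, limma). ErbB3 tumours had the lowest mean of Hbegf (8.42), Ier3 (9.33) and Plaur (9.39), as they had for 6 of the feedback genes. Between FGF and ERBB receptors 2 of the 20 were higher, against 8.7% of all genes called, Hbegf by 1.13 (SE 0.24) and Plaur by 0.44 (SE 0.15), the first with the pairs as a block too (adjusted p = 0.0151 for Hbegf and 0.228 for Plaur, limma).

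The cascade itself, from adaptors to kinases, was called in both directions. In MAP3K11 tumours 6 of 18 genes were higher and 5 lower (6 and 4 with the block), against 25% of all genes higher and 29.3% lower, with a median difference of 0.00. Gab2, a docking protein, was higher by 1.05 (SE 0.08), the exchange factor Sos2 was lower by -0.43 (SE 0.13), and Braf and Gab1 were not called (-0.08 and -0.15). Of 11 FGF system genes 2 were higher and 0 lower, against the same shares, Fgfrl1, a receptor without a kinase, by 0.96 (SE 0.09) and Flrt3, a membrane partner of FGF receptors, by 0.86 (SE 0.27). Fgf7 and Fgf13, whose group means spread most in this list (2.25 and 1.93), were not called there (0.01 and -0.49).

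Other genes followed the order of the group means closely, with r as a description over 13 means that share their arrays. Nearest to Dusp4 was Pex14 (r = 0.949), and to Spry2 Ptpn23 (0.960). Etv5 ran with Mcm6 (0.957), Dusp6 with Bclaf1 (0.942), Spred2 with Prdm8 (0.936) and Spred1 with B230308N11Rik (0.946). The best values were lower for Etv4 (Mybbp1a, 0.883), Spry1 (Adhfe1, 0.886), Spry4 (Dtna, 0.883) and Dusp5 (Eaf1, 0.879).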

How the data were processed

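Tumour RNA was measured on 76 Affymetrix mouse arrays. The deposited values are log2 probe set signals that the authors made with affy, per the submitters' processing notes; its version, the background correction and the normalization are not given in the sources used here. Array medians lay between 5.45 and 5.56, and the number of arrays limits the precision. Of 45101 probe sets, 34958 named 1 gene, 932 several and 9211 none in the platform annotation; genes were checked against RefSeq GRCm38.p6, which also gave locations and promoters. A gene was taken from its probe set with the highest mean and tested where this exceeded the array's percentile 40 in at least 4 arrays. Groups came from the introduced gene named in the sample characteristics.

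Here, limma 3.58.1 (lmFit, eBayes; statmod 1.5.0, R 4.3.3) was fitted to all 13868 genes with group and T label as terms, two-sided, with Benjamini-Hochberg adjustment, and was tested on simulated data. The labels call the arrays of a group biological replicates; no source names separate animals, so p-values may measure technical spread. Pairs of arrays were matched within groups on the medians of genes by autosome. Named are the 10 genes, the 1 gene most like each over the group means, up to 4 genes per pathway list with the widest range of group means among those called by the F test, and markers. The members, lists and tests were chosen with earlier results of these data known. The alternatives were other probe set choices, normalizations, filters, variance priors, weights, blocks, thresholds and left-out arrays or groups, among them the receptor contrast without PIP5K1B. One gene named by the study is not reported here.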

Additional observations from a re-analysis of the deposited data

Results flagged for a closer look

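Of the 130 sets of values of 1 gene in 1 group, 5 held an array far from the rest of its group by Dixon's ratio, where chance flags about 1 in 20. Spry2 was at 8.52 in FGFR2aIIIb T3 replicate 1, and the nearest array of the group was at 8.0. HER2 T1 replicate 1 stood low in Spry4, at 5.96 with the nearest at 6.26, and in Etv5, at 8.12 with the nearest at 8.56. Spry4 was at 5.98 in RON+MSP T3 replicate 2, with the nearest at 6.36. Spred2 was at 9.01 in RON+MSP T1 replicate 1, above the nearest at 8.79. The FAK1, MAP3K7 and ErbB3 arrays that stood apart are not among these, since they came in pairs.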

How the results depend on the processing

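Of 34 called differences of these genes, 13 kept direction and call under every alternative other than leaving out 1 array, and 12 under those too. The 21 calls of a group against the other 12 became 11 with the pairs as a random block, 44 with array weights (whose estimation stopped short of its convergence tolerance) and 11 at an adjusted p under 0.01. The 3 calls of MAP3K11 against MAP3K7 became 5 with the most variable probe set, 5 with array weights, 1 with only the arrays of both groups and 7 without the MAP3K7 pair T1 replicate 2 and T3 replicate 1 (chosen after seeing the data). The 4 calls of receptor against intracellular kinases became 0 with the pairs as a block, 1 with the mean of all probe sets, 1 with the most variable probe set, 1 without the MAP3K11 group and 0 at an adjusted p under 0.01, and 2 to 5 without single arrays (2 without FAK1 T1 replicate 1 or T2 replicate 1, MAP3K11 T3 replicate 2, MAP3K7 T1 replicate 1, RON+MSP T2 replicate 1 or TNK2 T1 replicate 3). The 2 calls of FGF against ERBB receptors became 1 with the pairs as a block. With its most variable probe set Spry4 reversed between receptor and intracellular kinases, to 0.15 (limma, adjusted p = 0.308). The causes were not tested. Without single arrays, counts ranged from 9 to 10 for the F test, 17 to 25 for each group, 4 to 5 for MAP3K11, both against the others and against HER2, 2 to 4 against MAP3K7, and stayed at 2 for FGF against ERBB receptors. With the replicate number as a block the counts were 10, 22, 5, 4, 3, 3 and 2, in the order F test, each group, MAP3K11 against the others, HER2 and MAP3K7, receptor kinases and FGF receptors; numbers did not pair the arrays (mean correlation of deviations -0.0019 for the same number and 0.00197 for others). Over all genes, the pairs as a block took the F test count to 7495, against 11916, the group calls to 12063, against 32220 (17967 at an adjusted p under 0.01), MAP3K11 against MAP3K7 to 2996, against 5189, receptor kinases to 1932, against 4619 (2912 without MAP3K11 and 2811 at an adjusted p under 0.01) and FGF receptors to 145, against 1207 (2950 with array weights and 434 at an adjusted p under 0.01). All 10 probe sets used lay above control level on every array. That level, 2.95, was below the lower quartile of every array (3.70 to 3.92), so passing it cannot exclude a limit from low signal. Spry4, the dimmest of the 10, ran from 5.57 to 7.52, where array medians were 5.45 to 5.56.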
